A study of Mus musculus with 2 samples.

Results

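The regions described here are genomic spans of 30000 bases or more, read by 1 or more array probes, whose signal lay below the bright level of the array. Their probes carry the name of a span on a chromosome with the ending F or R, taken here as the forward and the reverse strand. A probe was included when its span was at least that long and its signal was below the 75th percentile of the array on at least 1 of the 2 arrays. This chose 3783 of 55681 probes. The level that chose them is therefore given only as a description. Of 4080 probes for spans of this length, 297 were above the limit on both arrays and were not included. The 3783 probes belong to 630 regions on 20 chromosomes, or 514 separate places once overlapping spans are joined. They cover 320 regions on 1 strand and 310 on both, with 1887 probes ending in F and 1896 in R. Spans ran from 30050 to 7128486 bases with a median of 55738, and a region had between 1 and 20 of these probes with a median of 4.

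Long intergenic transcripts are RNAs made from DNA between protein-coding genes. Many are capped, spliced and polyadenylated like mRNAs, yet they are on the whole less abundant and more restricted to particular cell types. Some act in the nucleus on the expression of genes, and in myeloid cells a number of them have been tied to differentiation and to inflammatory responses. A span defined by such transcription need not be a single transcript, so its probes can lie in exons, in introns or in stretches that are not transcribed. The sources used here do not give the genome build of the spans. Coordinates are therefore those of the probe names, no neighbouring gene is named, and whether a span lies between genes was not checked.

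The RNA came from bone marrow cells of C57BL/6 mice, cultured over 4 days in 5% fetal bovine serum medium. The GM-CSF only culture received 40 ng/ml of GM-CSF, which drives the growth of granulocytes and macrophages. The GM-CSF plus IL-6 culture received in addition 40 ng/ml of IL-6, an inflammatory cytokine. The labels call the resulting cells myeloid-derived suppressor cells, immature myeloid cells that restrain T cells, and the comparison asks which mRNAs and noncoding RNAs differ with IL-6. Each culture was measured on 1 single-colour array, so differences could not be checked between replicates and carry no p-values. All 13 myeloid markers were well above background on both arrays, as were 3 of 3 B cell, 3 of 5 T and NK cell, 1 of 3 erythroid and 1 of 3 stromal markers. Markers of other cell types were thus also measured, and in bulk RNA fewer cells of a type cannot be told apart from less RNA per cell.

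Fewer than 4 in 10 of the probes gave a signal that the scanner software called well above background on both arrays, here called measured unless an array is named. After 1 outlier spot was left out, 1434 of 3782 probes (37.9%) were measured on both arrays, 221 (5.84%) on 1 array and 2127 (56.2%) on neither. Over all probes of the array, 56.6% were measured on both. The share was 39.0% in 11365 probes of shorter regions below the same limit and 45.1% in the 27108 other probes below it on both arrays. Of the 308 negative control probes, 1 (0.325%) was called on each array. The arrays gave nearly the same share, with 40.2% of the long-region probes called with IL-6 and 41.5% without.

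Signals are given in the scanner's arbitrary units, scaled so that the 75th percentile is 517 on both arrays. The measured probes had a median scaled signal of 64.4 with IL-6, with a range of 17.0 to 622, and of 62.9 without IL-6, with a range of 14.8 to 594. Probes measured on neither array had medians of 3.76 and 3.49, next to 3.50 and 3.15 for the negative controls. The unmeasured majority was thus centred on the level of the controls. An unmeasured probe gives only an upper bound on the RNA it binds. It sets no bound on the RNA of its region, since a probe in an intron or outside the transcript would read the same way.

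Probes of the same region were often measured in part. Of the 630 regions, 469 had at least 1 measured probe and 161 had none. Taking each strand of a region apart gave 940 region strands, and 707 of these had at least 3 probes. In 69 of the 707 every probe was measured, in 166 none was, and in 472 some were. The share measured on both arrays was 39.0% for spans of 30000 to 40000 bases, 39.3% up to 60000, 37.8% up to 100000, 35.9% up to 200000 and 30.1% for longer ones, the last over 183 probes. By chromosome it ran from 28.4% on chromosome 18 to 46.8% on chromosome 15, and by strand it was 37.0% for F and 38.8% for R. A bright probe nearby went with more detection. Where the same region strand also held a probe above the bright level, 47.7% of 719 probes were measured on both arrays. Where only the opposite strand did, the share was 43.0% of 586, and where the region held no bright probe it was 33.9% of 2477.

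The longest spans show how little a name of this kind says about signal. The longest, chr7:39351858-46480344, had 1 R probe, at 15.9 with IL-6 and 3.0 without, and it was measured on neither array. In chr5:99726262-100264512, 1 of 3 R probes was measured, at 19.8 with IL-6 and 22.0 without. All 3 F probes of chr3:34003359-34537330 were measured, between 69.3 and 284 with IL-6 and between 79.8 and 199 without. In chr13:28477490-28985604, 1 of 10 probes was measured, at 48.1 and 43.3, although its R strand also held a bright probe at 9486 with IL-6 and 8599 without. The other 2 of the 6 longest, chr13:28551902-28975446 and chr5:45400409-45815639, had 3 R probes each and none was measured on both arrays. In the first of these, 1 probe was called with IL-6 only, at 18.1 against 14.5 without.

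The regions with most probes were as uneven. On chr17:3198868-3394643, all 7 measured probes of 20 were on the F strand, with signals without IL-6 of 26.9 to 380. Of the 20 probes of chr1:138570107-138632310, 6 F probes and 1 R probe were measured. Only 4 of 20 probes of chr6:82608223-82669023, all F, and 3 of 20 of chr11:33414450-33450750 were measured. The region chr16:59557120-59602070 stood at the other end, with 14 of 19 probes measured, 5 on F and 9 on R. Between probes of 1 region strand, the share of the variance in log2 level that lay between strands rather than within them was 0.242, over 378 region strands with at least 2 measured probes and 1155 probes.

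The 6 brightest probes of the set were each above the limit of 517 on 1 array and below it on the other, so the rule fixes the direction of their ratios and the values are a description. The probe for the F strand of chr10:83181374-83249918 had 616 with IL-6 and 493 without, and that for the R strand of chr16:90038086-90127636 had 622 and 471. The R probe of chr2:173421598-173485043 had 510 and 579, that of chr6:83368261-83407280 had 503 and 584, and that of chr9:41488229-41545481 had 480 and 594. The sixth was the F probe of chr8:40100925-40196350, at 511 and 527. For probes of this brightness the technical SD of a log2 ratio between the arrays was 0.07, from spots of probes printed several times on each array. This SD holds the error of spots alone, without that of labelling or of culture.

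The measured probes of the 2 strands of a region often differed in level, as did probes of 1 strand. In 188 of the 310 regions probed on both strands each strand had a measured probe, in 95 only 1 strand had, and in 27 neither. Over the 188 regions, which share arrays and labelling, the correlation between the median log2 levels of the 2 strands was r = -0.04. The brightest measured F and R probes differed by a median of 1.38 on the log2 scale, or 2.60-fold, and by over 2-fold in 115 regions. F was the brighter in 85 and R in 103. These values use only probes below the bright level. Of the 188 regions, 93 also held a bright probe, and with those counted 139 were over 2-fold apart. Measured probes of 1 region strand differed too, with an SD within strands of 1.17 on the log2 scale. Levels of different probes also depend on how well each binds, so these differences are not measures of transcript abundance.

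Among these probes below the bright level, the widest gap was in chr8:40100925-40196350. Its brightest F probe had 511 with IL-6 and 527 without, and its brightest R probe 22.6 and 25.8, a difference of 21.5-fold that was alike on both arrays. Counting the probe of this region above the bright level as well, the F strand reached 588 and the gap was 24.4-fold. In chr10:83181374-83249774 it was R that was bright, at 479 and 514 against 30.7 and 28.5 for F, a difference of 16.8-fold. The overlapping span chr10:83181374-83249918 gave the reverse, with F at 616 and 493 and R at 321 and 293. There, 1 of 5 F probes and 3 of 5 R probes were measured. Counting the probes above the bright level moved the other gaps in different ways. In chr3:36280098-36347798 the strands were 18.3-fold apart among these probes but 1.01-fold apart once each strand's bright probe was counted. In chr6:116092274-116144199 the order turned, from R being 18.1-fold brighter to F being 66.7-fold brighter. In chr5:37051650-37110575 R was 16.1-fold brighter, and 91.6-fold with its bright probes.

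In the pairs where both strands were brightest, the strands were at most 1.80-fold apart, which the level limit of the choice partly fixes. In chr4:44181997-44249172 the brightest F probe had 515 with IL-6 and 439 without, and the brightest R probe 401 and 448. In chr13:12792150-12869825 F had 475 and 415, and R 465 and 421. In chr1:139713316-139913366 F had 472 and 385, and R 418 and 375, with 1 of 7 F probes and 5 of 10 R probes measured. The widest of these pairs was chr10:83181374-83249918 above, at 1.80-fold. In chr2:155269145-155303251 the F probe had 549 and 447 and the R probe 479 and 535, a difference of 1.02-fold, and R was 2.36-fold brighter once its bright probes were counted.

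Signals differed little between the arrays. Log2 ratios are the level with IL-6 less the level without it. Over the 1434 measured probes the median ratio was 0.04, with an SD of 0.30 and a range of -1.72 to 2.45. It was 0.03 over shorter regions, 0.05 over bright regions, -0.01 over all measured probes and -0.01 over the other probes below the bright level. Ratios were above 0 for 796 probes (55.5%) and below 0 for 638, and 95.3% lay within 1.5-fold. The share above 0 was 55.0% in shorter regions and 59.6% in bright regions. It was 49.1% in the other probes below the bright level and 48.5% over all measured probes. The median was 0.06 on F strands and 0.02 on R strands. Levels on the 2 arrays correlated at r = 0.975 over these probes, which share arrays and labelling.

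A total of 7 probes (0.488%) were at least 2-fold higher with IL-6, where 0.301% of all measured probes were, and 4 (0.279%) were at least 2-fold lower, where 0.165% of all were. Other probes below the bright level gave 0.474% and 0.286%, so these counts are near those of any dim probes. In 4 groups of equal size from dim to bright the counts of 2-fold probes were 3, 5, 3 and 0. All 11 lost the 2-fold size, and none changed sign, when the background was corrected by normexp with an offset of 50, which adds a constant to every signal before the log is taken.

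Of the 7 higher probes, 2 shared a region, chr15:73227424-73257474. An F probe (row 21, column 115 of the array) had 93.0 with IL-6 and 17.0 without, a log2 ratio of 2.45, and an R probe (row 99, column 44) had 76.1 and 26.0, a ratio of 1.55. The technical SD of a ratio at this level was 0.25. The 6 other measured F probes of the region had ratios of -0.38 to 0.33, with a median of 0.10, and no other R probe was measured. So 2 probes of opposite strands stood apart while the other 6 lay within 1.5-fold.

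Among the remaining higher probes, 4 had other measured probes on their strand, none of them 2-fold apart. An F probe of chr8:124355710-124401160 (row 208, column 38) had 70.8 with IL-6 and 19.5 without, a ratio of 1.86, while the other measured F probe had -0.26 and 5 R probes had 0.10 to 0.33. On chr6:50339188-50409363 an R probe (row 4, column 111) had 121 and 47.1, a ratio of 1.36, and the 3 other R probes had -0.41 to -0.02. On chr1:138442536-138520766 an F probe (row 246, column 120) had 39.4 and 16.8, a ratio of 1.23. Its other measured F probe had -0.08, its R probe 0.40, and the bright probes of both strands 0.21. The measured F probe of the overlapping span chr1:138442536-138521080 had -0.09. On chrX:100756245-100819095 an R probe (row 276, column 68) had 33.0 and 14.8, a ratio of 1.16, with no other measured probe in the region. Overlapping spans at the same place held 4 measured probes, none of them 2-fold apart. Its 2 other probes, measured on neither array, read 16.6 and 13.3 with IL-6 and 3.58 and 7.21 without. On chr16:59557120-59602070 an F probe (row 8, column 147) had 134 and 66.2, a ratio of 1.01. The 4 other F probes of that region had -0.34 to 0.11 and its 9 R probes -0.42 to 0.44. Beside these higher probes, 3 neuronal markers were also higher with IL-6. Tubb3, a neuronal tubulin, had 104 with IL-6 and 31.3 without. Stmn2, a stathmin of neurons, had 95.0 and 3.02, and Gap43, a protein of growing axons, had 109 and 3.02. The summed level of the 3 markers was 308 with IL-6 and 37.4 without, with Stmn2 and Gap43 unmeasured without IL-6, and their part in the higher probes was not tested.

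The 4 probes that were lower with IL-6 lay between rows 5 and 19 and columns 154 and 159 of the array. The F probe of chr3:37543523-37613073 (row 5, column 157) had 24.0 with IL-6 and 79.1 without, a ratio of -1.72, while the other F probe had 0.18 and 2 R probes had 0.13 and 0.19. The R probe of chr19:29546348-29596479 (row 19, column 159) had 20.4 and 61.7, a ratio of -1.60, with no other measured probe. An R probe of chr10:126818382-126856582 (row 6, column 158) had 21.6 and 47.5, a ratio of -1.14. The 7 other measured R probes of that region had -0.03 to 0.49, with a median of 0.24, and the 5 bright F probes -0.02 to 0.26. For chr1:64232564-64349617 an R probe (row 16, column 154) had 58.8 and 126, a ratio of -1.10, and no other probe of its region was measured.

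Over the 7 of these 11 probes that had other measured probes on their strand, the 23 others had a median ratio of 0.06 and ran from -0.41 to 0.49. In 4 of the 11 there was no such probe to compare.

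Smaller differences completed the named probes at both ends of the range. The F probe of chr1:64686823-64728598 (row 297, column 121) had 58.5 with IL-6 and 30.5 without, a ratio of 0.94. That of chr4:149383134-149451259 (row 201, column 42) had 62.1 and 32.8, a ratio of 0.92. The R probe of chr6:131272447-131303615 (row 155, column 40) had 156 and 303, a ratio of -0.96. The F probe of chr17:8719950-8783850 (row 1, column 71) had 21.8 and 41.6, a ratio of -0.94. The F probes of chr4:11899775-11931875 (row 256, column 44) and chr5:14923900-15062725 (row 85, column 50) had ratios of -0.89 and -0.88. Among the brighter members, the R probe of chr6:47687025-47728525 (row 8, column 95) had 457 and 244, a ratio of 0.90. There, 2 other R probes had 0.18 and 0.32. An F probe of chr13:83878467-84023718 (row 84, column 51) had 170 and 94.9, a ratio of 0.84. An F probe of chr3:34003359-34537330 (row 6, column 149) had 284 and 164, a ratio of 0.79, while its 2 companions had -0.20 and -0.13. At the low end, an R probe of chr13:70745633-70776516 (row 30, column 37) had 186 and 327, a ratio of -0.82, beside companions at 0.27 and -0.11. In the overlapping span chr13:70745306-70837331 an R probe (row 331, column 87) had 21.8 and 38.8, a ratio of -0.83, beside 6 others of -0.37 to 0.15. An R probe of chr15:68161768-68193518 (row 384, column 100) had 170 and 256, a ratio of -0.59. Its 4 measured companions had -0.42, -0.34, -0.20 and 0.03. On chr9:31390809-31591204 an F probe (row 29, column 142) had 60.9 and 89.1, a ratio of -0.55.

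Medians of region strands lay within 1.5-fold. There were 211 with at least 3 measured probes, holding 821 probes, and the median ratio of a region strand ran from -0.52 to 0.44. None reached 2-fold, 125 were above 0 and 86 below. Every measured probe was higher with IL-6 in 36, every one lower in 27, and 148 were mixed. The same counts over other regions are not given here. The median SD within a region strand was 0.18. The share of variance in the ratio that lay between region strands was 0.124 over 378 strands, and 0.397 over 168 strands and 455 probes when only probes above the median level were used. The probes of a region share its RNA and are not replicates.

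A few region strands leaned upward with all their probes. On the F strand of chr19:5771425-5848475, 9 of 9 measured probes were higher with IL-6, by 0.09 to 0.34 with a median of 0.18, and the bright probe of that strand (3168 with IL-6, 2714 without) had 0.22. The bright probe of its R strand, at 12893 and 10988, had 0.23. On the F strand of chr6:127111250-127142925 all 5 were higher, by 0.12 to 0.44 with a median of 0.35, from signals without IL-6 of 175 to 313, where the technical SD was 0.11. All 3 R probes of chr16:39984031-40081556 were higher, by 0.23 to 0.40, and its bright R probe had 0.18. On chr19:61226425-61270975 the 3 measured R probes had 0.22 to 0.42. The technical SD was 0.11 for the brightest of them and 0.25 for the others. The highest medians, 0.44 on the R strand of chr2:175640275-175701875, 0.40 on the R strand of chr13:41337973-41379821 and 0.38 on the F strand of chr3:41143423-41359623, each included a probe below 0. The bright F probe of the last had 0.42.

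Others leaned downward. On the R strand of chr6:129151512-129208737 the 5 measured probes had -0.42 to -0.10 with a median of -0.37, and the 4 bright probes of that strand -0.25 to -0.05. All 4 R probes of chr4:147105275-147171025 were lower, with ratios of -0.69 to -0.20, as were all 3 of chr4:123155515-123361565, with -0.56 to -0.37. For most of these probes the technical SD was 0.25. The 3 R probes of chr16:59556175-59603176 had -0.53 to -0.26, at a technical SD of 0.25. In contrast, the 9 R probes of the overlapping span chr16:59557120-59602070 ran from -0.42 to 0.44 with a median of -0.12. The lowest median, -0.52 on the F strand of chr9:113648970-113715170, held 5 measured probes of -0.73 to 0.04. Some regions with many probes were level or mixed. The 9 R probes of chr3:19179899-19216399 had a median of 0.01, and 8 F probes of chr2:155269145-155303251 ran from -0.14 to 0.71 with a median of 0.31. On the R strand of that last region the 3 bright probes went the other way, from -0.31 to -0.21.

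The direction of one strand went with no direction of the other over the set. Over the 188 regions the median ratios of F and R correlated at r = -0.003, and 100 of the 188 had the same sign on both. In 144 region strands that also held a bright probe, the median ratio of the dim probes and that of the bright ones correlated at r = 0.25, over strands that share arrays and labelling.

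Probes measured on only 1 array gave bounds. The fold was taken between the measured signal and the higher of the dim probe's own signal and the lowest measured signal of that array, 15.5 with IL-6 and 14.8 without. Of the 221 probes, 85 were measured only with IL-6 and 136 only without. A bound of at least 2-fold higher with IL-6 was found for 7 of the 221 (3.17%), where 4.98% of all 2150 probes measured on 1 array had one. A bound of at least 2-fold lower was found for 12 (5.43%), where 7.3% of all had one. The largest with IL-6 was the R probe of chr7:69024136-69131056 (row 7, column 9), with 121 against 4.31, at least 8.19-fold higher. Its 3 other R probes were measured on neither array, and the 3 bright probes of its F strand had ratios of -0.06 to 0.14. An F probe of chr16:57811599-58042454 (row 149, column 68) had 58.8 and 11.7, at least 3.98-fold higher, while another F probe had 0.18. An F probe of chr11:33414450-33450750 (row 354, column 13) was at least 2.74-fold higher, while another had 0.14. An R probe of chr11:112898724-113062945 (row 3, column 117) was at least 2.55-fold higher. The 3 measured R probes of that region had -0.15 to 0.31 and its 2 bright R probes -0.05 and 0.22. An F probe of chr6:82608223-82669023 (row 125, column 157) was at least 2.43-fold higher, and the 4 measured F probes there had -0.26 to 0.71.

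The largest bounds without IL-6 had companions of mixed direction. The F probe of chr6:67052066-67119366 (row 12, column 162) had 4.04 with IL-6 and 136 without, at least 8.76-fold lower with IL-6, while 2 measured F probes of the same region had 0.25 and 0.15. The F probe of chr2:168804720-168854970 (row 6, column 163) had 13.0 and 100, at least 6.48-fold lower, while another F probe had 40.8 and 21.4, a ratio of 0.93, and the other -0.11. An F probe of chr16:30170306-30223193 (row 17, column 153) had 4.89 and 81.0, at least 5.23-fold lower, while another F probe had 100 and 128, a ratio of -0.35. An R probe of chr5:110182844-110228345 (row 10, column 154) had 12.5 and 74.0, at least 4.77-fold lower, and its 2 other R probes were measured on neither array. On chr5:23349978-23402028 an R probe at row 17 and column 157 had 6.08 and 66.4, at least 4.28-fold lower. Another R probe of that region, at row 28 and column 153, was also lower, with 3.72 and 27.8 and measured only without IL-6. The 2 measured R probes below the bright level had ratios of 0.06 and 0.72. A bright R probe of that region (7108 with IL-6, 7662 without) had -0.11. The largest lower bounds named here lay between rows 6 and 17 and columns 153 and 163.

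Place on the array moved with the lower probes. The array has 384 rows and 164 columns of spots, and the corner where the first 48 rows meet the last 20 columns held 67 of the long-region probes (1.77%). It held 15 of the 16 probes that were at least 2-fold lower with IL-6, 4 of 4 by ratio and 11 of 12 by bound, and 1 of the 14 that were higher. The one lower probe elsewhere was an R probe of chr11:97275905-97310538 at row 64 and column 95. Over all probes printed once, 138 of 209 lower ones lay in that corner, which held 845 of 55237 probes, and 4 of 201 higher ones. Without the corner, 0 long-region probes were 2-fold lower by ratio and 1 by bound, while 6 were higher by ratio and 7 by bound. The zone of the first 48 rows or last 20 columns, which held 24.0% of the long-region probes, held 8 of the 14 higher ones (3 by ratio and 5 by bound), and the other 6 lay outside it. In tiles of 16 rows by 12 columns, 18 of the 30 probes 2-fold apart by ratio or bound lay in 5 of 336 tiles. The tile at rows 1 to 15 and columns 109 to 120 held 2 higher probes and 0 lower among 14. The tile at rows 18 to 27 and columns 110 to 119 held 1 higher probe among 13, that with the ratio of 2.45. The part of array place in the lower and the higher signals was not tested.

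At the limits of the choice, the probe nearest below the level limit was the R probe of chr5:33773842-33942967, with 515 and 520 against the limit of 517 on the scaled level. The nearest above it was the R probe of chr8:122920901-123008463, with 519 and 529. Only 16 of the 3783 probes were below the limit on 1 array alone. At the length limit, the shortest span was chr15:73227424-73257474 with 30050 bases, followed by chr8:18895366-18925423 with 30057 and chr7:46705675-46735750 with 30075. Just under it lay chr1:63319842-63349796 with 29954, chr1:138592780-138622719 with 29939 and chr3:63673371-63703295 with 29924.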

How the data were processed

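Agilent Feature Extraction 10.7.1.1 made the deposited spot intensities from Cy3 scans of both arrays, per the file headers. The deposited processed signal was put on a log2 scale minus the array's 75th percentile (486.2 with IL-6 and 549.7 without). The authors' deposited matrix of log2 values followed it at r = 0.99998 with both medians at 5.10 and sorted columns within 0.00136, so it is quantile-normalized and not centred per probe. Outlier-flagged spots were left out and each region probe was printed once. A measured probe is well above background by the extraction software. Technical SDs come from 266 probes with at least 5 spots, by level. Their number and 1 array per group limit the precision. Regions were named by size of ratio or bound (10 and 5 per direction), length, level, number of probes and strand pairs, and region strands and opposite-strand comparisons were chosen after their values were seen. Members and lists were chosen with earlier results of these data known. Only the 2-fold cut was tried on simulated ratios, whose set changes lay beyond it, so their recovery was largely fixed beforehand. Detection, strands and array place were not simulated. Python 3.11.15 with pandas 2.3.3 and numpy 2.4.6 was used, and R 4.3.3 with limma 3.58.1 for other normalizations. No probe sequence was used here.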

Additional observations from a re-analysis of the deposited data

How the results depend on the processing

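No paired analysis was possible because each group had 1 array. The authors' matrix, cyclic loess, median centring, quantile normalization and kept outlier spots left the counts of 7 higher and 4 lower probes as they were, and all 31 named ratios kept their value within the technical SD under the first 4 of these. Under normexp with an offset of 50, 0 probes were 2-fold higher and 0 lower, bounds numbered 1 and 1, the median ratio was 0.019, and 25 of 31 named ratios moved, with 0 changing sign. With no filter on dim probes 172 were higher and 129 lower, the median was 0.12 and 3 region strands had a 2-fold median. Above the lowest 25% by level of all probes of the array measured on both arrays, there were 2 higher and 1 lower, the median being 0.057. The looser background call gave 2274 probes measured on both arrays, 468 on 1 and 1040 on neither, 81 higher and 60 lower, bounds of 91 and 69, a median of 0.032 and 2 region strands. Many of the added probes lie near the background, where depth of signal limits a ratio. Spans of 20000 bases or more gave 7 lower, and bounds of 11 and 20. Spans of 50000 or more gave 821, 124 and 1266 probes by detection, 3 higher and 4 bounds higher. Leaving out the first 48 rows and last 20 columns altogether left 144 probes measured on 1 array, 4 higher, 0 lower and bounds of 2 and 1. Leaving out their corner, an alternative chosen after seeing the data, left 0 lower and 1 bound lower. The cause of these shifts was not tested, apart from the smaller or larger number of probes that each filter or limit leaves.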
